A study of Homo sapiens with 18 samples.

Results

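The 8 genes described here are recurrently altered in pancreatic ductal adenocarcinoma (PDAC), and their RNA was followed in the PDAC cell lines Panc1 and Panc89. They were picked by symbol, with earlier results of these data known, and all 8 were found among the 40266 gene symbols of the table. The members are the RAS genes *HRAS* and *NRAS*, the neighbours *CDKN2A* and *MTAP* on chromosome 9, the tumour suppressors *SMAD4*, *ARID1A* and *RNF43*, and the oncogene *MYC*. The data are RNA-seq libraries of 18 samples in 6 groups of 3, namely parental, Holoclone and Paraclone cells of each line. Panc1, grown from a primary PDAC, served as the mesenchymal model and Panc89, grown from a lymph node metastasis, as the epithelial one. The labels name no treatment or edit. Holoclone and Paraclone cells were grown out from single cells and, as far as the methods say, 1 clone stands for each type, while the parental cells are uncloned, so a property of a clone type cannot be told apart from one of the single clone that stands for it. The 3 replicates of a group were 3 passages of the same cells, and p-values measure the spread between passages.

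Pancreatic cancer typically starts with a mutation that locks a RAS protein in its active state, and it progresses as brakes on the cell cycle, on TGF-β signalling and on chromatin are lost. *HRAS* and *NRAS* encode membrane-bound GTPases that pass signals from growth factor receptors to the MAP kinases. *CDKN2A* encodes p16INK4a, which inhibits CDK4 and CDK6, and from another first exon p14ARF, which holds back MDM2. *MTAP*, the enzyme that starts the recovery of methionine from methylthioadenosine, lies beside *CDKN2A* and is often lost with it in tumours. *SMAD4* is the shared partner of the receptor-regulated SMADs, *ARID1A* is a DNA-binding subunit of the BAF form of the SWI/SNF remodeller, and *RNF43* is a ubiquitin ligase that removes Frizzled receptors from the cell surface. *MYC* encodes a transcription factor that binds DNA with MAX and drives growth genes.

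The deposited values are log2(TPM + 1), where TPM (transcripts scaled to a common library total) are also scaled by transcript length, so levels can be compared between genes as well as between samples. The TPM of a library summed to between 985339 and 988066, and mitochondrially encoded genes took 5.62% to 9.44% of them. TPM keep no read counts, so neither sequencing depth nor counting error is known. Replicates correlated across genes with Pearson r between 0.954 and 0.992. The line labels were checked against markers. *VIM* had mean log2 levels of 11.25 to 12.06 in the 3 Panc1 groups and 0.09 to 0.44 in the 3 Panc89 groups, and *CDH1* of 0.97 to 1.92 and 6.25 to 6.63. Not all markers divided the lines in this way. All 7 epithelial markers reached 1 TPM in each Panc89 group and 5 or 6 of them in each Panc1 group, and their sums overlapped (2593 to 5017 TPM in Panc1, 3075 to 4175 TPM in Panc89), with *KRT8* at mean log2 levels of 9.64 to 10.40 in Panc1 and 8.68 to 9.66 in Panc89. The 6 mesenchymal markers summed to 2053 to 5181 TPM in Panc1 and 6.01 to 33.4 TPM in Panc89, but *FN1* was lower in Panc1 (0.27 to 0.55) than in Panc89 (1.13 to 3.69), and *ZEB2* reached 1 TPM in no Panc1 library. Of 10 markers of fibroblasts, endothelial and immune cells, 1 (*CD68*) reached 1 TPM in the Panc1 groups and 2 to 4 in the Panc89 groups, and their sums were 52.4 to 151 and 19.5 to 80.7 TPM. Among them *PECAM1* had a mean log2 level of 5.93 in parental, 0.87 in Holoclone and 2.36 in Paraclone cells of Panc89. The part of such cells in the results was not tested.

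On GRCh38 (GENCODE 44), *MTAP* spans chr9:21802636-21937651 on the plus strand and *CDKN2A* chr9:21967752-21995301 on the minus strand, 30.1 kb apart. *HRAS* lies at chr11:532242-537321 (minus strand), *NRAS* at chr1:114704469-114716771 (minus), *ARID1A* at chr1:26693236-26782104 (plus) and *RNF43* at chr17:58353676-58417595 (minus). All 8 members are protein-coding. The 250 bases before the RefSeq start sites of the 3 members that were at or near 0 TPM in Panc1 and higher in Panc89 are given 5′ to 3′ on the strand of the gene (RefSeq, GRCh38.p14), with each CG dinucleotide in capitals. *CDKN2A* has a start for each of its first exons, and the one nearer its 3′ end is that of p16INK4a.
CDKN2A, p14ARF start, chr9:21995325-21995574, minus strand: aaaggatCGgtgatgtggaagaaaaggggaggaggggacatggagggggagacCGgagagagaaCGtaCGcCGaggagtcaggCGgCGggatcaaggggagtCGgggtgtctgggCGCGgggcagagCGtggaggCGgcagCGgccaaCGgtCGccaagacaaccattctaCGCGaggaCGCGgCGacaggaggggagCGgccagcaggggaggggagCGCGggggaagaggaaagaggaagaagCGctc
CDKN2A, p16INK4a start, chr9:21974858-21975107, minus strand: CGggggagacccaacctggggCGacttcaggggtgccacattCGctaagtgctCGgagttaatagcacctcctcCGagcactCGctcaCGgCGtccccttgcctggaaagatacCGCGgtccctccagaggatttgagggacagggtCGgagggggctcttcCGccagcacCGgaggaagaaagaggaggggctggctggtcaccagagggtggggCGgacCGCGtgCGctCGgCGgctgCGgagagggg
MTAP, chr9:21802386-21802635, plus strand: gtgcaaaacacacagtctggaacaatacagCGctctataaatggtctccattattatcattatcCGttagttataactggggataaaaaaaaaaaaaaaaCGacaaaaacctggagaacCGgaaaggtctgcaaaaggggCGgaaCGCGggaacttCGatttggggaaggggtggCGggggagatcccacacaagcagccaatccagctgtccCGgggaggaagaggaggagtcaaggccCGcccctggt
RNF43, outer start, chr17:58417535-58417784, minus strand: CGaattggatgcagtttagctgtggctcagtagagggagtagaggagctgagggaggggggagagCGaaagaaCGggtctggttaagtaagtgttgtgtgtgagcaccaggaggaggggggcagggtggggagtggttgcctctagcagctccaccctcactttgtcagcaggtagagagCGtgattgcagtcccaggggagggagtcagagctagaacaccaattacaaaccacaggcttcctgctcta
These windows hold 24, 20, 11 and 4 CG dinucleotides. Over all RefSeq promoters the median was 11 in 250 bases, with quartiles of 3 and 23. The p14ARF window of *CDKN2A* thus lies above the upper quartile, the p16INK4a and *RNF43* windows lie between the quartiles, and *MTAP* is at the median. A further RefSeq start of *RNF43* had 0. The windows of *HRAS*, *NRAS*, *SMAD4* and *ARID1A* hold 32, 20, 25 and 30. That of *NRAS* is shown because it holds the hexamer CACGTG, bound by MYC with MAX, in capitals. The hexamer reads the same on both strands.
NRAS, chr1:114716772-114717021, minus strand: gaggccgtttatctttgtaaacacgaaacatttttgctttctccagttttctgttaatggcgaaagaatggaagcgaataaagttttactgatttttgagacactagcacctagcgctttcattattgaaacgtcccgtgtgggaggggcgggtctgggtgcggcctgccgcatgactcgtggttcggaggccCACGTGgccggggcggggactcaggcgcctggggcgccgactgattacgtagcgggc
This hexamer occurs in 6.34% of 35116 such windows and, of the members with a RefSeq window used here, in that of *NRAS* alone. A match is a description of letters and not of binding.

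All 8 members passed the filter for testing, at least 1 TPM in at least 3 libraries, which 16093 genes passed. *CDKN2A* and *RNF43* passed only through Panc89, with no Panc1 library at 1 TPM, and *MTAP* reached 1 TPM in 1 parental, 3 Holoclone and 3 Paraclone libraries of Panc1. *CDKN2A* and *RNF43* therefore had to be higher in Panc89, and their calls between the lines are given as description. In parental Panc1 cells the mean TPM fell in the order *HRAS* (115), *MYC* (90.6), *ARID1A* (56.3), *NRAS* (51.1), *SMAD4* (27.4), *MTAP* (0.988), *RNF43* (0.0831) and *CDKN2A* (0). In parental Panc89 cells the order was *MYC* (496), *CDKN2A* (307), *MTAP* (71.6), *HRAS* (55.7), *NRAS* (24.7), *ARID1A* (22.0), *SMAD4* (20.6) and *RNF43* (3.31). The 3 most abundant members of parental Panc89 thus included both 9p21 genes, which were among the 3 rarest in parental Panc1.

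**Figure D1:**
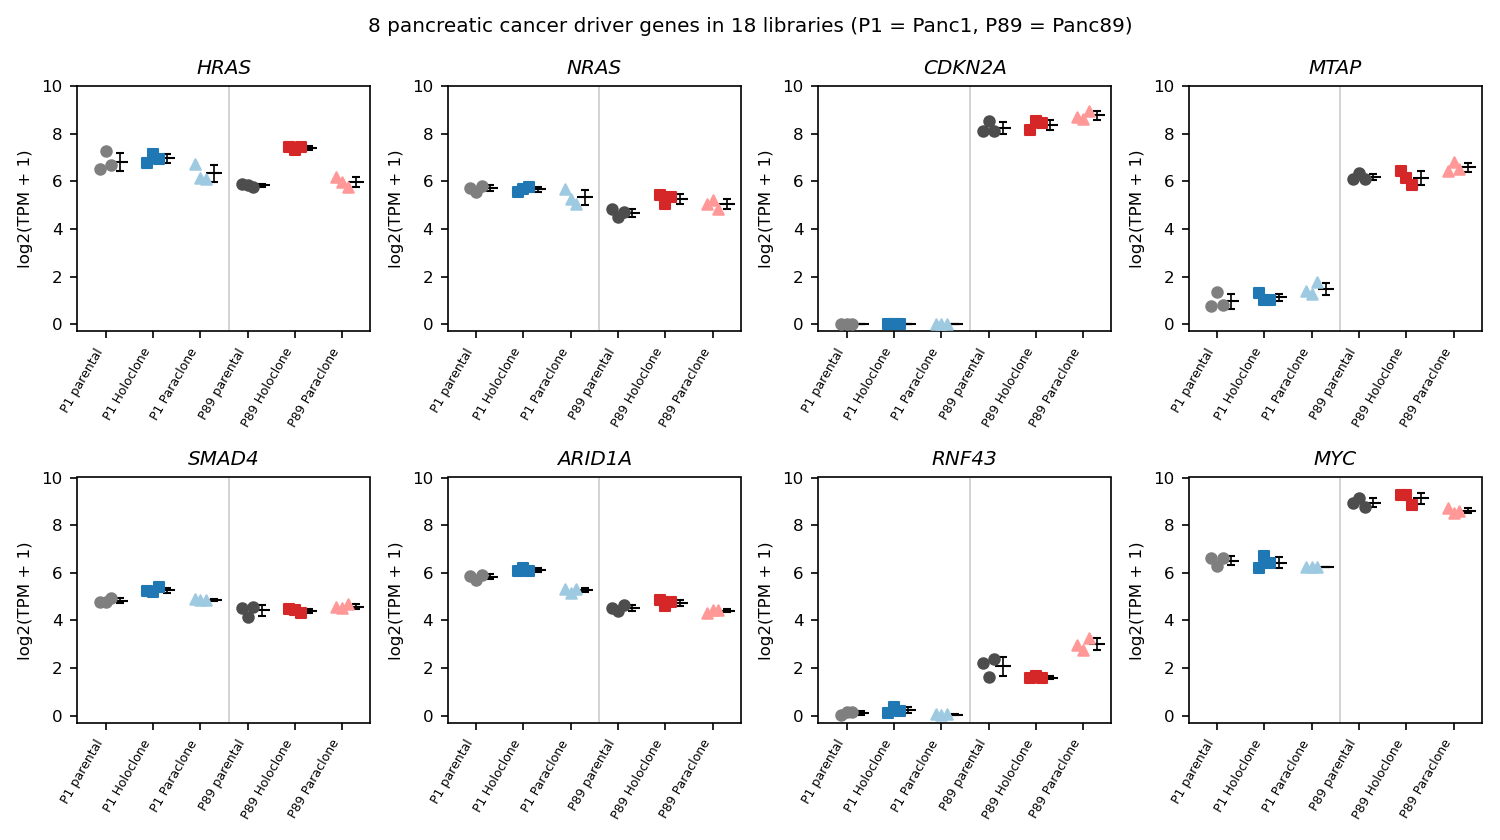
Level of each of the 8 genes, as log2(TPM + 1), in the 18 libraries by group, with each point a library and the bar beside it the group mean ± SD (n = 3). *CDKN2A*, *MTAP*, *RNF43* and *MYC* lie higher in all 9 Panc89 libraries than in all 9 Panc1 libraries, *ARID1A* and *SMAD4* lie lower, and *HRAS* is highest in the Panc89 Holoclone group.

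The lines were compared first. Between the parental cells all 8 members passed the threshold (adjusted p under 0.05, limma-trend), 4 higher and 4 lower in Panc89, where 66% of all genes tested passed (27.5% higher, 38.5% lower). The libraries of the lines did not overlap for any of the 8, as for 73.3% of all genes. The Holoclone cells of the lines differed in 7 members (65.8% of all genes), with no overlap for 8 (69%). The Paraclone cells differed in 5 (60.7%), with no overlap for 6 (64%). With backgrounds this high, the number of members called says little about them, and the sizes and the exceptions are described. Over all genes the median log2 difference was −0.18, −0.11 and −0.00 in these 3 comparisons. TPM give the share of a gene in the RNA of its library, and in bulk RNA fewer expressing cells and less RNA per cell cannot be told apart.

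*CDKN2A* divided the lines most sharply. It was listed at 0 TPM in each of the 9 Panc1 libraries. In Panc89 its TPM were 279, 372 and 272 in parental, 282, 373 and 349 in Holoclone and 418, 394 and 500 in Paraclone cells. No fold is given against a group listed at 0. Its reads may not be fully separable from those of other genes. Of the 31-base words of its transcripts, 15.0% also occur in other genes when either strand is read. The largest part, 13.3%, is in *CDKN2B-AS1*, an antisense RNA that overlaps it on the opposite strand. Whether the stranded libraries kept such reads apart was not tested. *CDKN2B-AS1* itself had mean log2 levels of 0.17 to 0.26 in the Panc1 groups and 2.01 to 2.10 in the Panc89 groups.

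*MTAP* followed its neighbour, but not to 0. Its TPM were 0.702, 1.53 and 0.733 in parental, 1.46, 1.05 and 1.05 in Holoclone and 1.61, 1.40 and 2.41 in Paraclone cells of Panc1. In Panc89 they were 66.7, 80.0 and 68.2, then 84.8, 70.3 and 56.2, then 84.9, 111 and 90.0 in the same order of groups. The lowest Panc89 library was thus far above the highest Panc1 library. The log2 fold changes of Panc89 over Panc1 were 5.21 ± 0.19 (SE, n = 3 per group, limma adjusted p = 2.1e-12) for parental, 5.02 ± 0.19 for Holoclone and 5.11 ± 0.19 for Paraclone cells. Of the 31-base words of *MTAP* transcripts, 13.5% are shared with other genes, most of all with the pseudogene *ERVFRD-3* inside its locus (4.47%). The part of such words in the low Panc1 values was not tested.

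Genes around the pair showed where along 9p21 the lines parted. *CDKN2B*, which encodes the CDK4 and CDK6 inhibitor p15INK4b and lies 7.6 kb beyond *CDKN2A*, was also listed at 0 in all 9 Panc1 libraries and had log2 levels between 6.07 and 8.17 in Panc89. *DMRTA1*, 451.5 kb from *CDKN2A*, was under 1 TPM in every Panc1 library, though not at 0, with group means of 0.62 to 0.72 in Panc1 and 1.19 to 1.45 in Panc89. On the other side, *KLHL9*, an adaptor of a CUL3 ubiquitin ligase, had group means of 2.74 to 2.94 and 4.01 to 4.43, and *FOCAD* had 2.41 to 2.85 and 3.81 to 4.55. *MIR31HG*, a non-coding host of miR-31, had 1.62 to 2.76 and 1.91 to 2.68, and the Paraclone means of the lines were close. Levels at 0 or low in Panc1 with clear levels in Panc89 were thus seen for *CDKN2A*, *CDKN2B* and *MTAP* (0.97 to 1.47 against 6.14 to 6.58). They were also seen for *CDKN2B-AS1* (0.17 to 0.26 against 2.01 to 2.10) and *HACD4* (0.03 to 0.31 against 1.74 to 2.73). *KLHL9* and *MIR31HG*, which lie between *HACD4* and *MTAP*, were measured in both lines. *CDKN2A-DT* and *IFNE* were under 1 TPM in all 6 group means. Of 11 tested non-member genes of a list of 9p21 neighbours, 10 were higher and 1 (*PLIN2*, −4.63) lower in parental Panc89 cells, with a median log2 fold change of 1.46 beside −0.18 over all genes. Of the 11, 5 (*HACD4*, *CDKN2B*, *CDKN2B-AS1*, *DMRTA1* and *ELAVL2*) reached 1 TPM in Panc89 alone and 1 (*PLIN2*) in Panc1 alone, beside 8.92% and 6.51% of all genes. Their direction was largely fixed by the filter, so the count and the median are a description. The counts were 8 and 1 for Holoclone and 9 and 1 for Paraclone cells.

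**Figure D2:**
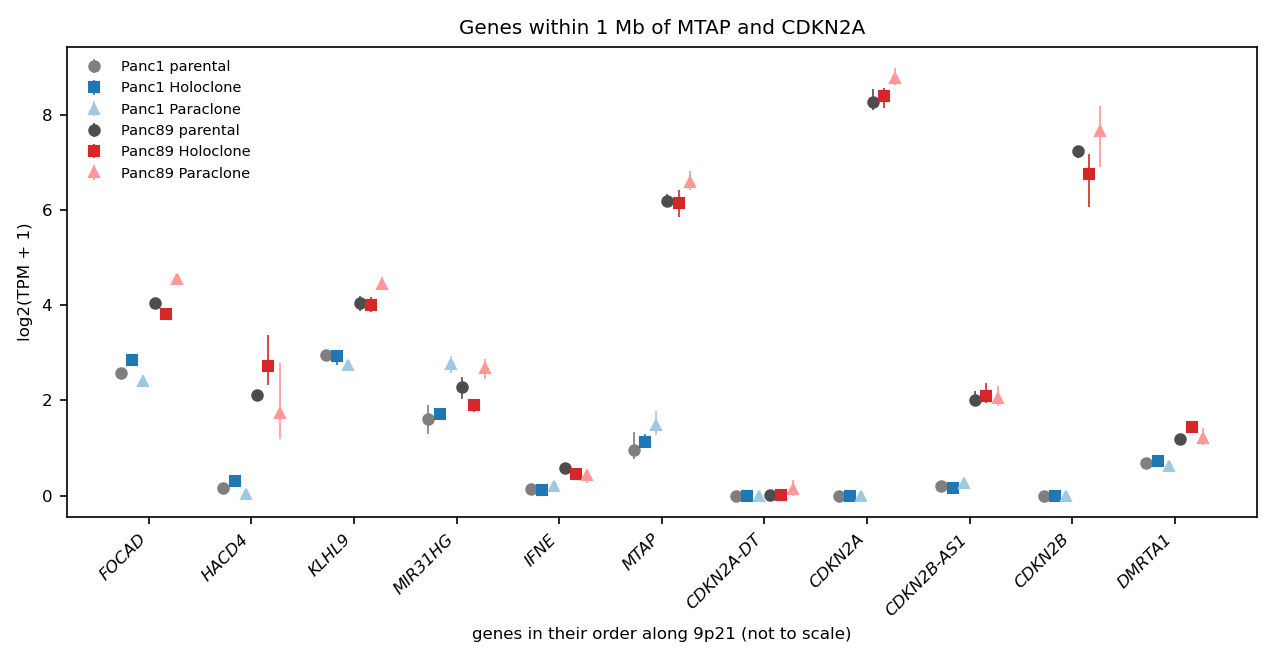
Mean log2(TPM + 1) of 11 genes within 1 Mb of *MTAP* and *CDKN2A*, in their order along the chromosome and not to scale, for the 6 groups, where bars run from the lowest to the highest of 3 libraries. *CDKN2A* and *CDKN2B* are at 0 in every Panc1 library and *MTAP* is between 0.77 and 1.77, whereas *KLHL9*, *FOCAD* and *MIR31HG* are measured in both lines.

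*MYC*, at chr8:127735434-127742951 on the plus strand, was also higher in Panc89, and was well above 1 TPM in every library of both lines. Its TPM were 96.3, 77.1 and 98.4 in parental, 73.0, 102 and 83.1 in Holoclone and 74.2, 74.3 and 75.2 in Paraclone cells of Panc1. In Panc89 they were 486, 571 and 431, then 619, 612 and 462, then 421, 364 and 386. Every Panc89 library lay above every Panc1 library. The log2 fold changes were 2.44 ± 0.15 (limma adjusted p = 8.27e-10), 2.70 ± 0.15 and 2.37 ± 0.15 for parental, Holoclone and Paraclone cells. *CASC11*, an overlapping non-coding RNA on the opposite strand, holds 2.65% of the 31-base words of *MYC*.

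*RNF43* was low in both lines and lowest in Panc1, at no more than 0.280 TPM in any of its libraries. In Panc89 its TPM were 3.64, 2.09 and 4.20 in parental, 1.97, 2.15 and 1.99 in Holoclone and 6.92, 5.70 and 8.53 in Paraclone cells. On the log2(TPM + 1) scale, which understates changes of genes this low, the differences between the lines were 1.96 ± 0.17, 1.37 ± 0.17 and 2.95 ± 0.17 for parental, Holoclone and Paraclone cells. With a pseudocount of 0.1 in place of 1 they were 4.21, 2.98 and 5.74. The level of *RNF43* is uncertain because 68.6% of its 31-base words also belong to other genes, 66.8% to an unnamed protein-coding gene (ENSG00000285897) that overlaps it on the same strand. Reads in those words could be assigned to either.

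*HRAS* and *NRAS* were lower in parental Panc89 than in parental Panc1 cells. The TPM of *HRAS* were 91.6, 152 and 103 in parental Panc1 and 58.8, 55.7 and 52.7 in parental Panc89 cells, without overlap, and the log2 fold change was −1.002 ± 0.19 (limma adjusted p = 0.000252). Those of *NRAS* were 52.0, 46.2 and 55.2 against 27.3, 21.8 and 24.9, with −1.02 ± 0.16 (limma adjusted p = 3.72e-05). Among the clones the estimates were nearer 0 or of the other sign, which was not tested against the parental difference. *HRAS* was at 109, 142 and 122 TPM in Panc1 Holoclone and 173, 159 and 175 TPM in Panc89 Holoclone cells, higher in Panc89 in every library, with a log2 fold change of 0.44 and a 95% interval of 0.04 to 0.85 that did not pass the threshold (limma adjusted p = 0.0522). It passed under both other scalings of the libraries, by upper quartile and by median of ratios, at 0.56 and 0.63, and with the compared groups alone. *NRAS* was lower in Panc89 Holoclone cells (log2 fold change −0.40 ± 0.16, limma adjusted p = 0.0384), a call that did not hold with either of these scalings, with no filter on low values or without 3 of the 6 libraries in turn. Between the Paraclone cells the intervals were −0.78 to 0.04 for *HRAS* and −0.64 to 0.04 for *NRAS*.

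*ARID1A* and *SMAD4*, suppressors well above the filter in every library, were lower in Panc89 parental and Holoclone cells, and *ARID1A* also in Paraclone cells. *ARID1A* had TPM of 57.5, 51.6 and 59.7 in parental Panc1 and 22.1, 20.1 and 23.9 in parental Panc89 cells. Its log2 fold changes were −1.32 ± 0.10 (limma adjusted p = 1.42e-08), −1.38 ± 0.10 and −0.87 ± 0.10 for parental, Holoclone and Paraclone cells, all past the threshold and without overlap. *SMAD4*, at chr18:51028528-51085045 on the plus strand, had TPM of 26.0, 26.2 and 30.0 in parental Panc1 and 22.3, 16.6 and 23.0 in parental Panc89 cells, a log2 fold change of −0.40 ± 0.12 (limma adjusted p = 0.00761). This call was lost under both other scalings (log2 fold change −0.25 and −0.17) and without parental Panc89 replicate 2 (−0.26), the library at 16.6 TPM. The difference was −0.88 ± 0.12 between Holoclone cells (limma adjusted p = 9.43e-06) and −0.28 ± 0.12 between Paraclone cells (limma adjusted p = 0.0568).

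**Figure D3:**
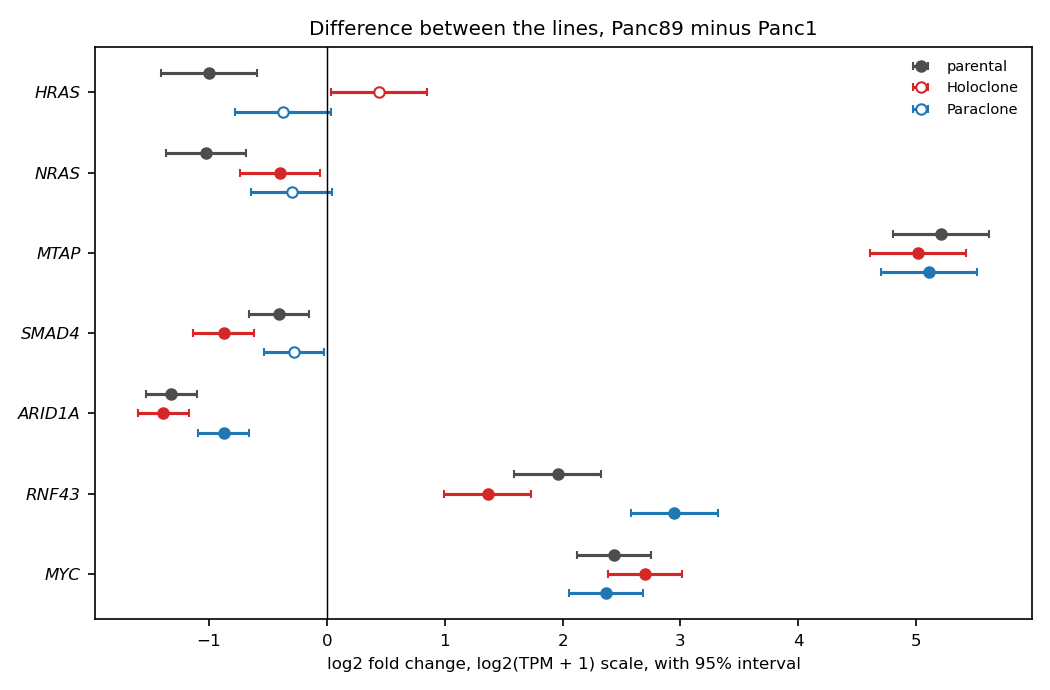
Log2 fold change of Panc89 over Panc1 on the log2(TPM + 1) scale with its 95% interval, for parental, Holoclone and Paraclone cells, where filled points passed an adjusted p of 0.05 (limma) and open points did not. *CDKN2A* is left out because it is listed at 0 in Panc1. *MTAP* lies near 5 in all 3 comparisons, and *HRAS* runs from −1.002 in parental to 0.44 in Holoclone cells.

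Next, Holoclone and Paraclone cells were compared within each line, which are colony types held to be rich and poor in self-renewing cells. In Panc1, 3 members were higher in Holoclone cells and 0 lower, with 37.3% of all genes called (27.4% higher, 9.97% lower), and at an unadjusted p under 0.05 (limma) there were also 0 lower, while *MTAP* passed as lower under both other scalings. Libraries did not overlap for 4 members, beside 51.3% of all genes. In Panc89, 3 were higher and 2 lower, with 35.7% of all genes called (22.4% higher, 13.3% lower), and libraries did not overlap for 7 members, beside 40.8%. The median gene had a log2 fold change of 0.19 in Panc1, 0.09 in Panc89 and 0.01 in both after upper quartile scaling. In Panc1 73.3% of all calls were higher in Holoclone cells, but 51.1% after upper quartile and 47.5% after median-of-ratios scaling, and in Panc89 62.8%, 52.4% and 49.4%. Small increases are therefore also given relative to the median gene.

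*HRAS* was higher in Holoclone cells of both lines and by more in Panc89. Its Paraclone TPM were 106, 69.7 and 67.4 in Panc1 and 71.6, 60.9 and 52.7 in Panc89, to be set against the Holoclone values above. In Panc89 no Holoclone library was near the Paraclone or parental ones, the log2 fold change over Paraclone was 1.44 ± 0.19 (limma adjusted p = 2.87e-05), and that over parental cells 1.58 ± 0.19 (limma adjusted p = 1.97e-05). In Panc1 it was 0.63 ± 0.19 (limma adjusted p = 0.0164), or 0.44 above the median gene, and the call was lost under both other scalings, with the compared groups alone and without 3 of the 6 libraries in turn. The difference between the lines was 0.81 ± 0.27 (limma adjusted p = 0.0290). This call was lost with no filter on low values (adjusted p = 0.0515) and without 5 of the 12 libraries in turn, with log2 differences from 0.60 to 0.80.

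For *NRAS* neither Holoclone to Paraclone difference passed the threshold. Its TPM in Panc1 were 45.7, 50.5 and 52.7 in Holoclone and 50.4, 36.7 and 32.5 in Paraclone cells, and in Panc89 41.4, 31.7 and 39.7 and then 32.2, 36.4 and 27.2. The groups overlapped in both lines, and the 95% intervals of the log2 difference were −0.01 to 0.67 and −0.11 to 0.57. Over parental cells, *NRAS* was higher in Panc89 Holoclone cells by 0.58 ± 0.16 (limma adjusted p = 0.0140). That call was lost without parental replicate 2 (0.50) and without Holoclone replicate 3 (0.54). The ratio of *HRAS* to *NRAS* TPM was 4.17 to 5.01 in the 3 Panc89 Holoclone libraries and 1.67 to 3.28 in the 15 others. The 3.28 was parental Panc1 replicate 2, whose group otherwise had ratios under 2.

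**Figure D4:**
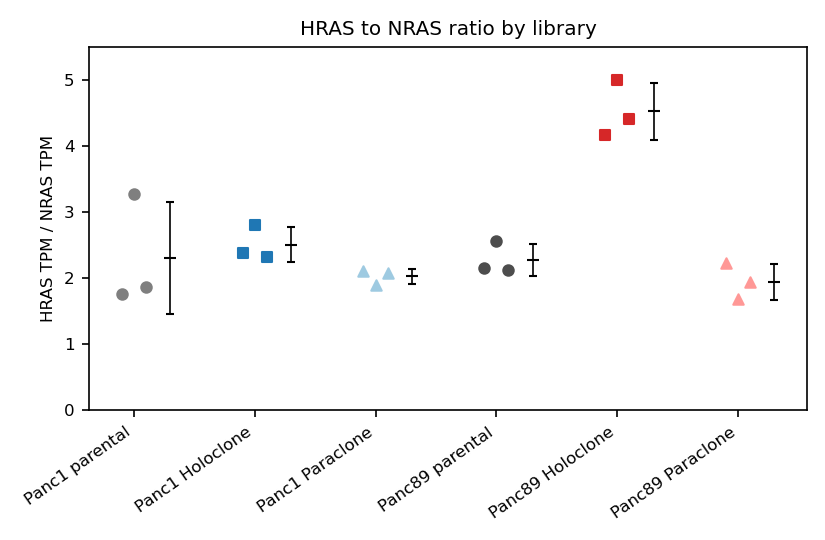
Ratio of *HRAS* to *NRAS* TPM in each of the 18 libraries by group, with group mean ± SD (n = 3). The Panc89 Holoclone libraries lie at 4.17 to 5.01, above all others, and 1 parental Panc1 library stands apart from its group at 3.28.

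*ARID1A* was higher in Holoclone than in Paraclone cells of both lines. Panc1 Holoclone cells had 65.5, 72.8 and 67.0 TPM and Paraclone cells 39.2, 34.8 and 39.2 TPM, with the parental cells between them and no overlap among the 3 groups. The log2 fold change was 0.84 ± 0.10 (limma adjusted p = 1.12e-05), 0.65 above the median gene. Against parental cells the Paraclone was lower (log2 fold change −0.56 ± 0.10, limma adjusted p = 0.000748), while the Holoclone difference of 0.28 did not pass (limma adjusted p = 0.10). In Panc89 the TPM were 27.6, 23.3 and 26.0 in Holoclone and 19.0, 20.8 and 20.6 in Paraclone cells, a log2 fold change of 0.33 ± 0.10 (limma adjusted p = 0.0190) that was lost under both other scalings, with the compared groups alone and without 3 libraries in turn. The change in Panc89 minus that in Panc1 was −0.51 ± 0.14 (limma adjusted p = 0.0116).

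For *SMAD4* the clones of the lines went apart. Its TPM were 36.5, 35.5 and 41.1 in Panc1 Holoclone and 28.8, 27.6 and 27.7 in Panc1 Paraclone cells. The log2 fold change was 0.41 ± 0.12 (limma adjusted p = 0.0132), 0.22 above the median gene, and both other scalings lowered it to 0.17 and 0.14, past the threshold in neither. It was also lost without Holoclone replicate 3 (0.35), the library at 41.1 TPM. In Panc89 the TPM were 21.04, 20.4 and 18.8 in Holoclone and 22.5, 21.7 and 24.9 in Paraclone cells, which did not overlap, and the interval of the log2 difference was −0.44 to 0.07. The difference between the lines was −0.60 ± 0.17 (limma adjusted p = 0.0123), and with median-of-ratios scaling −0.46 (limma adjusted p = 0.05001, just over the threshold). *SMAD4* was also the 1 member called between Holoclone and parental cells of Panc1, where 10.9% of all genes were called, at 0.45 ± 0.12 (limma adjusted p = 0.0242). It did not pass with the compared groups alone, with upper quartile scaling, or without 4 of the 6 libraries in turn.

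*RNF43* was highest in the Paraclone cells of Panc89, where its 3 libraries lay above all other libraries. Holoclone cells were lower than Paraclone cells (log2 fold change −1.39 ± 0.17, limma adjusted p = 1.56e-05). Paraclone cells were higher than parental cells by 0.92 ± 0.17 (limma adjusted p = 0.00134), which did not pass with the compared groups alone (limma adjusted p = 0.0684). In Panc1 all 9 values were under 0.3 TPM, so a change there could hardly register on this scale, and its interval of −0.18 to 0.56 belongs to a gene near 0. With a pseudocount of 0.1 the Panc1 difference became 1.03 and passed (limma adjusted p = 0.0208). The change in Panc89 minus that in Panc1, −1.58 ± 0.24 (limma adjusted p = 0.000137), was −2.75 with the pseudocount of 0.1 and is given as a description.

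*CDKN2A* in Panc89 was highest in Paraclone cells too, with all 3 libraries above the Holoclone and the parental ones. Holoclone cells were lower than Paraclone cells (log2 fold change −0.39 ± 0.13, limma adjusted p = 0.0347), and this call was lost with a pseudocount of 0.1, with the compared groups alone and without 4 of the 6 libraries in turn. Paraclone cells were higher than parental cells by 0.51 ± 0.13 (limma adjusted p = 0.0130), lost with the compared groups alone and without 3 libraries in turn. *MTAP* in Panc89 was highest in Paraclone cells as well, with its 3 libraries above all Holoclone and parental libraries, but the Holoclone to Paraclone difference of −0.44 did not pass (95% interval −0.85 to −0.03, limma adjusted p = 0.0870). It passed under both other scalings, at −0.55 and −0.58. In Panc1 the interval was −0.76 to 0.06, and there too both scalings gave a call, at −0.49 and −0.51.

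*MYC* in Panc89 Holoclone cells was higher than in Paraclone cells by 0.52 ± 0.15 (limma adjusted p = 0.0122), without overlap. The call did not hold under either other scaling, at 0.41 and 0.38, with the compared groups alone or without Holoclone replicate 2. In Panc1 the difference was 0.19, equal to that of the median gene, with an interval of −0.12 to 0.51, and it turned to −0.05 and −0.08 under the other scalings. Neither clone of either line passed the threshold against its parental cells for *MYC*.

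**Figure D5:**
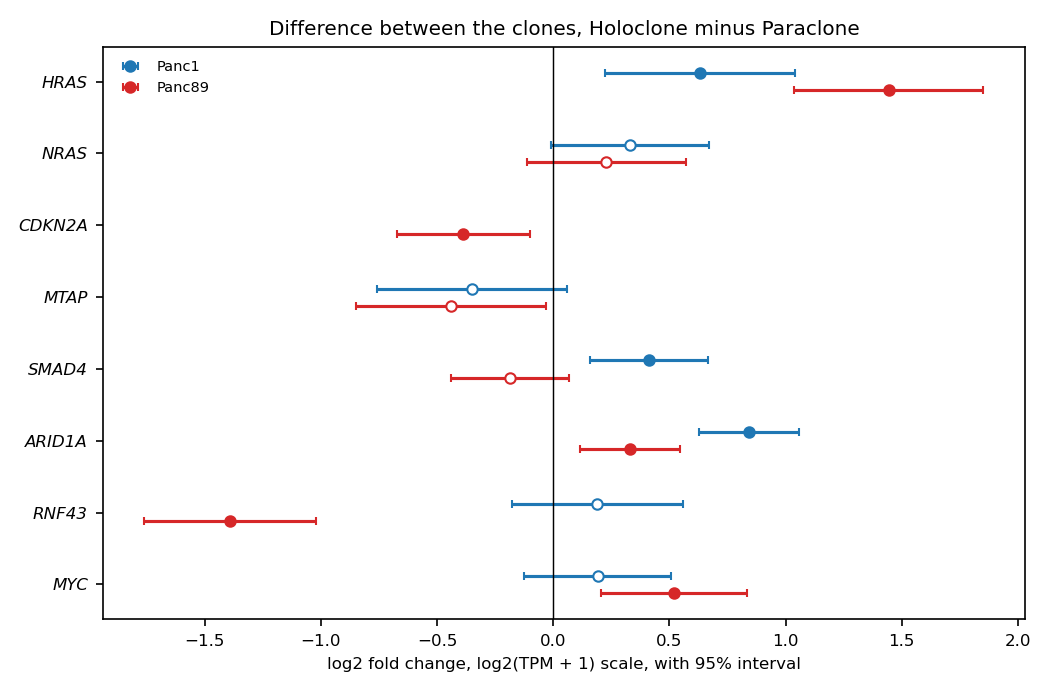
Log2 fold change of Holoclone over Paraclone cells on the log2(TPM + 1) scale with its 95% interval, for each line, where filled points passed an adjusted p of 0.05 (limma). *HRAS* and *ARID1A* are above 0 in both lines, *RNF43* is at −1.39 in Panc89, and *SMAD4* is above 0 in Panc1 and at −0.19 in Panc89.

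Against the parental cells of their line, 1 or 2 members passed in each comparison. In Panc1 1 passed in Holoclone cells (*SMAD4*) and 1 in Paraclone cells (*ARID1A*, with 28.6% of all genes called). In Panc89 2 passed in Holoclone cells (*HRAS* and *NRAS*, with 24.7%) and 2 in Paraclone cells (*CDKN2A* and *RNF43*, with 19.4%). Comparisons of a line share their parental samples. For the Holoclone to Paraclone difference between the lines, 4 members passed where 35.1% of all genes did, among them *RNF43*, which is near 0 in Panc1.

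The pathways around the members were counted from lists without the members, and percentages are read against those of all genes. Of 26 genes of the RAS to MAPK chain, 5 were higher and 13 lower in parental Panc89 than in parental Panc1 cells (69.2% beside 66%), with a median log2 fold change of −0.37 beside −0.18. The largest differences were *MRAS* (−2.94), the adaptor *SHC1* (−1.87), the farnesyltransferase subunit *FNTA* (1.53) and *SHOC2* (−1.50), a scaffold for RAF activation. Between Holoclone and Paraclone cells of Panc1 13 were higher and 3 lower (61.5% beside 37.3%), but 8 and 4 under either other scaling. In Panc89 3 were higher and 4 lower (26.9% beside 35.7%), and 19 of the 26 did not pass.

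Of 16 genes of the p16-RB and ARF-MDM2 axis, 5 were higher and 3 lower in parental Panc89 cells, 50% beside 66% over all genes. Of the list, *CDKN2B* reached 1 TPM in Panc89 alone. *CCND2*, a cyclin that activates CDK4 and CDK6, was higher by 1.84 on the log2 scale, *CDK6* lower (−1.29) and *CDK4* higher by 0.72. The other scalings gave 8 higher and 3 or 2 lower. In Panc89 Holoclone cells 7 were higher than in Paraclone cells and 2 lower (56.2% beside 35.7%), or 4 and 2 under either other scaling, led by *CCND2* at 4.70 (mean log2 levels 5.04 and 0.34) and *MDM2*, the target of p14ARF, at 1.20. A list of 17 genes held those of polyamine synthesis and of methionine salvage, which MTAP starts. Of the 17, 3 were higher and 10 lower in parental Panc89 cells (76.5% beside 66% over all genes), and 7 or 8 lower under the other scalings. *ODC1* (−1.65) and *SMS* (−1.48), which make putrescine and spermine, changed most.

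Of 21 genes of SMAD signalling, 3 were higher and 11 lower in parental Panc89 cells (66.7% beside 66% over all genes), with a median of −0.54 beside −0.18. *SMAD3*, which *SMAD4* joins after TGF-β binding, was lower (−2.69), as were the BMP receptors *BMPR1A* (−1.71) and *BMPR2* (−1.59). Against Paraclone cells, 10 were higher and 3 lower in Panc1 Holoclone cells (61.9% beside 37.3% of all genes). In Panc89 Holoclone cells 4 were higher and 9 lower (61.9% beside 35.7%), and *SKIL*, a repressor of SMADs, fell by 1.94 on the log2 scale. The other scalings gave 9 and 5 in Panc1 and 4 and 10 in Panc89. Whether the list differs between the lines as a whole was not tested.

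Of 25 SWI/SNF subunits, 6 were higher and 13 lower in parental Panc89 cells (76% beside 66% over all genes, median −0.42 beside −0.18), or 7 and 9 with median-of-ratios scaling. The ATPase *SMARCA4* went against *ARID1A*, higher in Panc89 by 2.30 (mean log2 levels 6.08 and 3.78), and *SMARCD3* was lower (−2.28). In Holoclone cells of Panc1 14 subunits were higher than in Paraclone cells and 1 lower, and 8 and 3 under either other scaling. Of all genes 37.3% were called there (27.4% higher, 9.97% lower). *ACTL6A* (1.18), *PBRM1* (0.92) and *DPF2* (0.89) were among the largest. In Panc89 9 were higher and 1 lower, with *SMARCD3* at 1.10 and *SMARCB1* at 1.00. This was near the 35.7% of all genes called there (22.4% higher, 13.3% lower). Of all calls there 62.8% were higher, but 52.4% after upper quartile and 49.4% after median-of-ratios scaling.

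Of 19 genes of WNT receptor turnover and its ligands, 12 were higher and 6 lower in parental Panc89 cells, 94.7% beside 66% over all genes, and under both other scalings also 12 and 6. Of the 19, 5 (*LGR6*, *RSPO3*, *RSPO4*, *FZD10* and *NKD1*) reached 1 TPM in Panc89 alone and 2 (*FZD9* and *TNFRSF19*) in Panc1 alone, so their direction was largely fixed by the filter and the share is a description. The Frizzled receptor *FZD10* had a mean log2 level of 5.41 in parental, 0.70 in Holoclone and 0.02 in Paraclone cells of Panc89 and was listed at 0 in all 9 Panc1 libraries, while *FZD7* was lower in parental Panc89 cells (−3.19). Of the receptors for R-spondins, which keep *RNF43* from its targets, *LGR6* was higher by 2.40 and *LGR4* lower (−2.36). In Panc89 Holoclone cells, where *RNF43* was lower than in Paraclone cells, *FZD6* was higher by 1.82 and *RSPO4* by 1.26, and *RSPO3* was lower (−1.23).

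Of 16 partners and rivals of *MYC*, 5 were higher and 5 lower in parental Panc89 cells (62.5%), and of 30 nucleolar and metabolic genes that it is known to induce, 5 were higher and 9 lower (46.7% beside 66%), or 9 and 7 with median-of-ratios scaling. *PVT1*, a non-coding neighbour of *MYC*, was lower (−1.59) where *MYC* was higher by 2.44. Of the induced genes, *FBL*, a nucleolar methyltransferase, was lower (−4.52), *RRP12* lower (−1.13) and *TFAP4* higher by 1.48. In Holoclone cells 11 of the 30 were higher and 1 lower than in Paraclone cells of Panc1. Of all genes 37.3% were called there (27.4% higher, 9.97% lower). In Panc89 10 were higher and 0 lower (8 and 1 under either other scaling), led by *ODC1* (1.15) and *PES1* (0.90). Of all genes 35.7% were called there (22.4% higher, 13.3% lower). In both lines the share of the list called was thus near that of all genes. *MXD4*, which competes with *MYC* for MAX, was lower in Panc89 Holoclone cells (−1.65).

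The genes most alike in pattern were found by Pearson r over the 18 libraries, a description since the libraries fall into the 2 lines and share their groups. For *CDKN2A* these were *MAGEB2*, *RAB25* and *CSAG1* (r = 0.999 each), and for *MTAP* *KCNK1*, *CSAG1* and *GAGE12C* (r = 0.997 to 0.996). *MYC* was near *TRIM29* and *LINC02994* (r = 0.990 each), *RNF43* *IL1RN*, *EPHX4* and *NMNAT2* (0.986 to 0.984), and *ARID1A* *MFGE8*, *TRAPPC8* and *HEG1* (0.990 to 0.987). These largely follow the split of the lines. *HRAS*, highest in the Panc89 Holoclone cells, was nearest *USP7* (0.962), *RSF1* and *NDE1*, *NRAS* nearest *CRYBG1* (0.940), *RNF4* and *PRR14*, and *SMAD4* nearest *FAM222B* (0.934), *BAZ1A-AS1* and *ADCK2*.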

How the data were processed

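Polyadenylated RNA of 18 cultures was sequenced from stranded libraries. The authors estimated transcript abundance with kallisto 0.46.1 (per the labels) against human Ensembl transcripts (GRCh38), summed it to genes, scaled it by length, and deposited log2 values of TPM plus 1, which were used as they stand; TPM were recovered from them. TPM hold no counts, so depth is unknown and no counting interval can be given.

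Of 40266 symbols, 16093 that reached 1 TPM in 3 or more libraries were tested. The 6 group means were fitted over all 18 libraries with limma 3.58.1 (trend) in R 4.3.3, and p-values were adjusted over all tested genes (Benjamini-Hochberg, threshold 0.05). The study tested counts, which were not used here. The pseudocount was 1. The fit was tested on simulated data. Alternatives were a pseudocount of 0.1, no filter, the compared groups alone, a replicate block, upper quartile and median-of-ratios scaling, a fold threshold, and each library left out.

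The 8 members and the gene lists were chosen with earlier results of these data known. All members are named. Of a list, up to 4 called genes with the largest absolute fold change and no overlap were candidates for naming, and of genes alike in pattern the 3 with the highest r, of which 1 is not reported here. Genes of 9p21 within 1 Mb could all be named. Positions are those of GENCODE 44 on GRCh38, and promoters those of RefSeq GRCh38.p14, used for 7 of the 8 members. Shared words are 31-base stretches of a gene's transcripts found, as they read or as their reverse complement, in transcripts of other genes.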

Additional observations from a re-analysis of the deposited data

Results flagged for a closer look

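For 4 of the 8 genes the Holoclone to Paraclone difference was not the same in the 2 lines, by the test of the difference itself (Panc89 minus Panc1, limma, 95% interval). Across all genes 35.1% passed that test. For *HRAS* the difference was 0.81 (0.24 to 1.39, adjusted p = 0.0290), from changes of 0.63 in Panc1 and 1.44 in Panc89, and it did not pass without 5 of the 12 libraries in turn. For *SMAD4* it was −0.60 (−0.96 to −0.24, adjusted p = 0.0123), from 0.41 and −0.19, and did not pass with median-of-ratios scaling. For *ARID1A* it was −0.51 (−0.82 to −0.21, adjusted p = 0.0116), from 0.84 and 0.33. For *RNF43* it was −1.58 (−2.10 to −1.06, adjusted p = 0.000137), from 0.19 and −1.39, and −2.75 with a pseudocount of 0.1. This gene was under 0.3 TPM in all Panc1 libraries, where a change could hardly register, so its difference between the lines is a description only. Groups of 3 were too small for a search for single outlying libraries.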

How the results depend on the processing

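Of 73 comparisons of a member with a fold change, 35 passed the threshold, and 22 of these passed under every alternative other than the added fold threshold, which was applied to counts. Depth is unknown, so it could not be set against these limits. The counts of members called moved by more than 1.5 times as follows. With an absolute log2 fold change over 1 as well, they were 0 for Panc1 Holoclone against Paraclone (from 3), 2 for Panc89 Holoclone against Paraclone (from 5), 0 for each Panc1 clone against parental (from 1), 1 and 0 for Panc89 Holoclone and Paraclone against parental (from 2) and 1 for the difference between lines (from 4). With the compared groups alone, they were 2 for Panc89 Holoclone against Paraclone, 0 for Panc1 Holoclone and 0 for Panc89 Paraclone against parental. Upper quartile scaling gave 0 for Panc1 Holoclone against parental. A pseudocount of 0.1 and both scalings gave 2 for Panc1 Paraclone against parental. Leaving out 1 library gave 3 to 5 for Panc89 Holoclone against Paraclone (3 without Holoclone replicate 3 or Paraclone replicate 1), 0 to 1 for Panc1 Holoclone (0 without parental replicate 1 or 2 or Holoclone replicate 1 or 3), 1 to 3 for Panc1 Paraclone (3 without Paraclone replicate 1, 2 without parental replicate 1 or 2), 1 to 2 for Panc89 Holoclone (1 without Holoclone replicate 3) and 1 to 2 for Panc89 Paraclone against parental (1 without parental replicate 1 or 3 or Paraclone replicate 3). The causes were not tested.

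Values that changed sign had not passed the threshold. *MYC* in Panc1 Holoclone against Paraclone became −0.054 and −0.081 under upper quartile and median-of-ratios scaling. Leaving out 1 library in turn, the Panc1 Holoclone against parental difference ran from −0.013 to 0.35 for *HRAS*, from −0.11 to 0.017 for *NRAS* and from −0.21 to 0.032 for *MYC*. For Panc89 Holoclone against parental it ran from −0.18 to 0.11 for *MTAP* and from −0.17 to 0.057 for *SMAD4*. The difference between lines became 0.036 and 0.033 for *NRAS* under the scalings and 0.10 for *MTAP* with a pseudocount of 0.1, and without single libraries it ran from −0.28 to 0.030 and from −0.24 to 0.059.

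The other scalings moved the share of higher calls among all genes from 41.6% to 48.4% (upper quartile) and 52.1% (median-of-ratios) between parental lines, from 25.6% to 47.6% and 53.3% for Panc1 Paraclone against parental and from 65.2% to 51.3% and 51% for Panc89 Holoclone against parental.

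Same-numbered libraries of a line correlated in their deviations from the group means with r from −0.318 to 0.190. Libraries with different numbers were not compared, so these values cannot decide whether replicate numbers pair the samples. With the number as a replicate block, *CDKN2A* in Panc89 Holoclone against Paraclone no longer passed (−0.39, limma adjusted p = 0.0531), *SMAD4* between Paraclone cells of the lines passed (−0.28, limma adjusted p = 0.0484), and no other member's call changed.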

Other observations

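Of other genes recurrently altered in PDAC, *STK11*, a kinase that activates AMPK, had mean log2 levels of 6.21 (parental), 6.40 (Holoclone) and 6.50 (Paraclone) in Panc1 and of 0.03, 0.01 and 0.05 in the same groups of Panc89. *GATA6*, a transcription factor of the classical PDAC subtype, was at 0.57, 0.19 and 3.00 in Panc1 and at 2.19, 3.06 and 2.28 in Panc89, so it was lower in Panc1 Holoclone than Paraclone cells (log2 fold change −2.80 ± 0.17, limma adjusted p = 4.38e-09). Of 29 tested genes of this list, 6 were higher and 12 lower in parental Panc89 cells, 62.1% beside 66% over all genes, and 9 and 7 with median-of-ratios scaling.

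Of 13 tested neighbours of *SMAD4* on 18q21, 8 were higher and 1 lower in Holoclone than in parental cells of Panc1, where 10.9% of all genes were called, and the median log2 fold change was 0.75 beside 0.01. *TCF4* (1.82), *MEX3C* (1.11) and *SMAD2* (0.93) were higher and *LIPG* (−1.71) lower. Both other scalings gave 7 and 1. The list was chosen with earlier results known, and its counts are a description.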
